A study of Homo sapiens with 2 samples.

Results

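EEF1A1 mRNA was described here at the A positions that the deposited minus-strand tables list between the bounds of the gene on chromosome 6 (hg19), where T-to-C on the genome is A-to-G on the transcript. The rule took every listed position: 842 in either library, 831 in the library without ABA, 599 in the ABA library and 588 in both, out of 4727008 nuclear A positions listed in either library (chromosomes 1 to 22 and X). The gene was chosen by its A-to-G values in these libraries, with its most changed position, 74228485, already known, so those values are given as a description, with counting intervals and no test.

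Both groups were HEK-293T cells, an established human embryonic kidney line, that carried the CIRTS-hADAR biosensor, and per the labels they differed only in the small molecule: none in one group, ABA in the other. CIRTS is an engineered system that brings an effector protein to RNA, and hADAR is human ADAR. Cells without the biosensor, and ABA without the biosensor, are in neither group. Each group had 1 library from 1 biological replicate, so no difference between them has a replicate check. The library without ABA held 50746286 nuclear base reads and the ABA library 44912517, with a median of 10 reads per listed position in both. Intervals are exact, at 95%, and cover counting error only; 1 read spans several positions, so they are too narrow to that extent.

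EEF1A1 encodes the alpha subunit of translation elongation factor 1, which binds GTP and carries aminoacyl-tRNA to the A site of the ribosome. It is among the most abundant proteins of growing cells, and its mRNA belongs to the class with a terminal oligopyrimidine tract at the 5′ end. ADAR enzymes deaminate adenosine in double-stranded RNA to inosine, which is read as G, and the bases beside an adenosine affect how well it is edited. The human genome holds many processed pseudogenes that are nearly identical to the EEF1A1 mRNA. The sources used here do not say how reads that align to several of these copies were counted, so all EEF1A1 counts are uncertain to that extent, and the part of such reads in the values below was not tested.

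The start of the gene shows how the listed positions fall on the transcript. The stretch shown is bases 14 to 43 of EEF1A1 counted from the 5′ end of the gene, from RefSeq (GRCh38.p14), transcript strand, with listed A positions in capitals.

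EEF1A1: ggtttgccgccAgAAcAcAggtaagtgccg

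All 5 positions listed here, from base 25 to base 32, fell on an A letter. The letters gtaagt, which match the usual start of an intron, follow after base 33, and the A letters within them were not listed. Of the 9 A letters in the first 50 bases, 5 were listed. The gene is 5283 nt long in RefSeq and in the interval used, and the RefSeq table gives it 1 transcript. Distances from the 5′ end below count along the gene, introns included.

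Listed positions at most 50 nt apart were joined into exon-like blocks, 12 in all, numbered from the 5′ end. An exon annotation of hg19 was not used here, so the blocks stand for covered stretches and not for annotated exons. Block 1, at the stretch shown above, spanned 8 nt and was listed only without ABA, with 9 to 10 reads per position. Blocks 2 to 8 were the deep part of the transcript. They ran from 74229771 down to 74227217, with spans of 165, 179, 292, 145, 254, 225 and 423 nt. Blocks 9 to 12, from 74227156 down to 74225509, were shallow, with at most 20 reads at any position.

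Depth was uneven along the transcript, and the peaks fell in the same places in both libraries. At the 480 positions of blocks 2 to 8 listed in both, depth ran from 14 to 314 reads without ABA, with a median of 48, and from 7 to 285 with ABA, with a median of 44.5. The deepest stretch lay where blocks 6 and 7 face each other. The first listed position of block 7, 74227984, had 313 reads with A or G in the library without ABA and 278 in the ABA library. At the last of block 6, 74228078, these were 294 and 266. Block 8 was the shallowest of blocks 2 to 8 by its median, 26 reads in the library without ABA and 25 in the other.

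**Figure D1:**
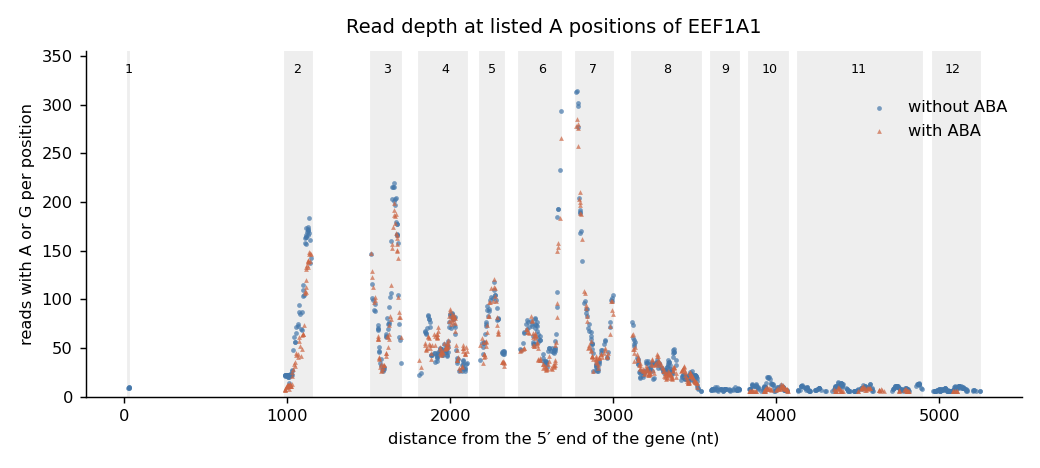
Reads with A or G (y axis, linear) at each listed EEF1A1 position against distance from the 5′ end of the gene (x axis, nt), for the library without ABA (blue circles) and with ABA (orange triangles); grey bands are the 12 blocks. Depth peaks where blocks 6 and 7 face each other, at 314 reads without ABA and 285 with ABA, and does not exceed 20 reads in blocks 9 to 12.

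EEF1A1 was slightly shallower in the ABA library. At positions listed in both it had 789 base reads per 1000000 nuclear base reads without ABA and 726 with ABA, a ratio of 0.920 (0.905 to 0.934). The blocks did not share 1 ratio. Block 2 had 0.742 (0.710 to 0.774) and block 4 had 1.09 (1.04 to 1.13), while the other deep blocks lay between 0.858 and 0.993. In the shallow 3′ stretch, blocks 9 to 12, the ratio at positions listed in both was 0.747 (0.681 to 0.819), against 0.926 (0.911 to 0.941) in blocks 2 to 8. Of the 340 positions listed there without ABA, 232 were missing with ABA, or 68.2%, beside 29.9% of all nuclear positions. Nuclear positions were not matched to these on depth, and over the whole gene the share was 29.2%. A position needs 6 reads to be listed and the 232 had a median of 8 without ABA, so a small drop in depth is enough to remove them. Fewer EEF1A1 molecules and less of that RNA captured cannot be told apart in these data.

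A-to-G mismatches in EEF1A1 were about as much more frequent with ABA as in nuclear RNA at large. Without ABA, 82 of 34434 reads carried G, a rate of 0.238% (0.189 to 0.296). With ABA, 136 of 29123 did, a rate of 0.467% (0.392 to 0.552). The ratio was 1.96 (1.48 to 2.61), and the nuclear ratio without EEF1A1 was 2.01 (1.98 to 2.05), which lies inside that interval. That nuclear ratio leaves out variant-like positions. With them and EEF1A1 kept it was 1.70 (1.68 to 1.73), also inside. At 20 or more reads in each library both EEF1A1 and nuclear positions, variant-like ones left out, had 1.86. No EEF1A1 position reached a G share of 35% in either library, the level from which a nuclear position was set aside as variant-like. Reaching it in 1 library was enough, so positions that were high only with ABA were set aside too.

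The other mismatches at the same positions were few, with ratios near 1 and wide intervals. A-to-C was found in 12 reads without ABA and 9 with ABA, rates of 0.0349% and 0.0310%, and its ratio was 0.889 (0.331 to 2.30). For A-to-T, from 7 and 6 reads, the ratio was 1.02 (0.282 to 3.53). Both intervals still hold the A-to-G ratio of 1.96.

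EEF1A1 stood apart from nuclear RNA in its level of mismatches, in both libraries. Its A-to-G rate was 6.16 times the nuclear rate without ABA (4.90 to 7.65) and 6.01 times with ABA (5.04 to 7.12). A-to-C was also higher than in nuclear RNA, 5.65 times (2.92 to 9.89) without ABA and 4.16 times (1.90 to 7.91) with ABA. A-to-T was 5.14 times (2.07 to 10.6) and 4.88 times (1.79 to 10.6) the nuclear rate. All 3 kinds of mismatch were thus more frequent in EEF1A1 than in nuclear RNA, without as well as with ABA. These ratios were not matched on depth. At 20 or more reads in each library, A-to-C was 0.0365% without ABA and 0.0330% with ABA, beside nuclear rates of 0.0116% and 0.0124%. A-to-T was 0.0232% and 0.0220%, beside 0.00700% and 0.00681%. Nuclear positions were still shallower on average there.

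Depth moves with the level of mismatches, since deeper nuclear positions had higher A-to-G rates too. Among positions with 20 to 49 reads in the shallower library, EEF1A1 had 0.181% (0.106 to 0.290) without ABA and 0.491% (0.356 to 0.661) with ABA, and nuclear positions had 0.0525% and 0.0978%. With 50 to 99 reads the EEF1A1 rates were 0.368% and 0.594%, and the nuclear rates were 0.113% and 0.215%. With 100 or more reads they came closest, 0.244% (0.161 to 0.355) and 0.404% (0.289 to 0.549) in EEF1A1 beside 0.166% and 0.301%. Both nuclear rates lie inside the EEF1A1 intervals there. Shallower EEF1A1 positions held next to no G reads: 0 of 1095 without ABA and 1 of 742 with ABA at 6 to 9 reads, and 1 of 1140 and 0 of 890 at 10 to 19 reads. At the nuclear rate for their own depth, the EEF1A1 positions listed in both would have held 34.9 G reads without ABA and 58.2 with ABA. They held 81 and 136, which is 2.32 and 2.34 times as many.

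**Figure D2:**
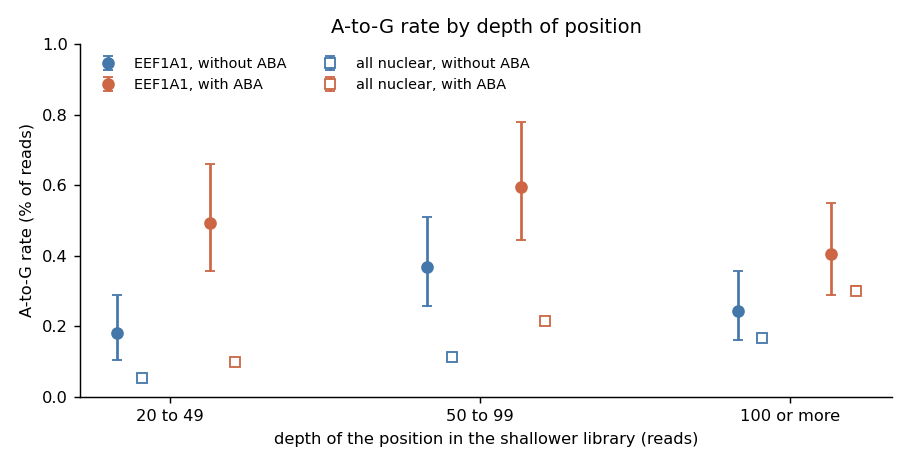
A-to-G rate in percent of reads (y axis) by depth of the position in the shallower library (x axis), for EEF1A1 (filled circles) and all nuclear positions (open squares), without ABA (blue) and with ABA (orange); bars are exact 95% counting intervals. EEF1A1 lies above the nuclear rate in the 3 bins plotted, and at 20 to 49 reads it had 0.491% with ABA beside 0.0978%. At 100 or more reads the EEF1A1 intervals include the nuclear rate in both libraries.

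G reads were spread over many EEF1A1 positions, with a few that held far more. Without ABA, 62 of 831 listed positions had a G read: 50 had 1, 7 had 2, 2 had 3 and 3 had 4. With ABA, 80 of 599 had one: 65 had 1, 10 had 2, 1 had 3, and 4 had at least 5. At a depth of 20 reads or more in each library there were 425 positions, of which 60 (14.1%) showed G in the library without ABA and 79 (18.6%) in the ABA library. The same shares over nuclear positions, variant-like ones left out, were 2.06% and 3.42%, but those were shallower, with a mean of 33.7 and 34.2 reads beside 71.1 and 64.5 in EEF1A1. Within depth bins the gap varied, and it was not narrower in each of them. At 20 to 49 reads, G was found at 5.44% of EEF1A1 positions without ABA and 14.2% with ABA, beside 1.48% and 2.60% of nuclear ones. At 50 to 99 reads it was found at 23.2% in either library, beside 6.77% and 10.3%. At 100 or more reads the shares were 29.5% and 26.2%, beside 19.2% and 26.4%, so that with ABA the deepest EEF1A1 positions were near the nuclear share. The counts that follow are over all 425 positions and are not matched on depth. A G read in both libraries was found at 21 of the 425 positions, or 4.94%, beside 0.319% of nuclear positions. The share of G reads was higher with ABA at 72 of the 425 and lower at 46, which is 16.9% and 10.8%, beside 3.29% and 1.87% of nuclear positions.

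By a change of at least 5 percentage points, 7 of the 425 positions were higher with ABA and 1 was lower. That is 1.65% and 0.235% of them, beside 0.225% and 0.0557% of the 359021 nuclear positions that passed the same minimum of 20 reads, which were shallower on average. At 3 of the 7 the change was over 10 points, and these 3 were also the positions with the most G reads in the ABA library.

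The first of the 3 lay in block 5, at 74228485, 2271 nt from the 5′ end of the gene. It had 3 G reads of 110 without ABA, 2.73% (0.566 to 7.76), and 21 of 121 with ABA, 17.4% (11.1 to 25.3). A change as large was found at 13 of the 359021 nuclear positions, itself included. The gene was chosen with this position known, so that count is a description only.

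Both others lay in block 6, the next block towards the 3′ end. Position 74228250 had 4 G reads of 62 without ABA, 6.45% (1.79 to 15.7), and 13 of 66 with ABA, 19.7% (10.9 to 31.3). Position 74228325, only 6 nt from the 5′ end of the block, had 3 of 48 reads without ABA, 6.25% (1.31 to 17.2). With ABA it had 8 of 48, 16.7% (7.48 to 30.2). Among the same nuclear positions, variant-like ones again left out, 26 changed as much as 74228250 and 58 as much as 74228325. The intervals of the libraries did not overlap at 74228485 and overlapped at these other positions. As 74228485 was known when the gene was chosen, its separation is a description only and does not set it apart from the others.

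All 3 positions already carried G reads without ABA, and none had a C or T read in either library. They were compared with nuclear positions with at least 20 reads in each library, variant-like ones left out. Of these, 88 reached the share of 74228250 without ABA, 93 that of 74228325 and 3238 that of 74228485. None of the 3 had a listed A directly before or after it. The same held for 171 of the 425 EEF1A1 positions with 20 or more reads in each library, block ends not counted. The 3 positions held 10 of the 82 G reads without ABA (12.2%) and 42 of the 136 with ABA (30.9%). Their pooled share was 4.55% (2.20 to 8.20) in the first library and 17.9% (13.2 to 23.4) in the second.

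With the 3 positions left out, the EEF1A1 rate was 0.210% (0.165 to 0.265) in the library without ABA, 0.325% (0.263 to 0.398) in the ABA library, and the ratio 1.55 (1.13 to 2.13). Against the nuclear rate for the same depth, the positions listed in both then held 71 G reads beside 34.7 without ABA and 94 beside 57.6 with ABA, which is 2.05 and 1.63 times as many. The 3 positions were picked for their G reads with ABA, and the nuclear sets kept their own highest positions. A larger fall in the ABA library, and a lower ratio, are therefore favoured by that choice.

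**Figure D3:**
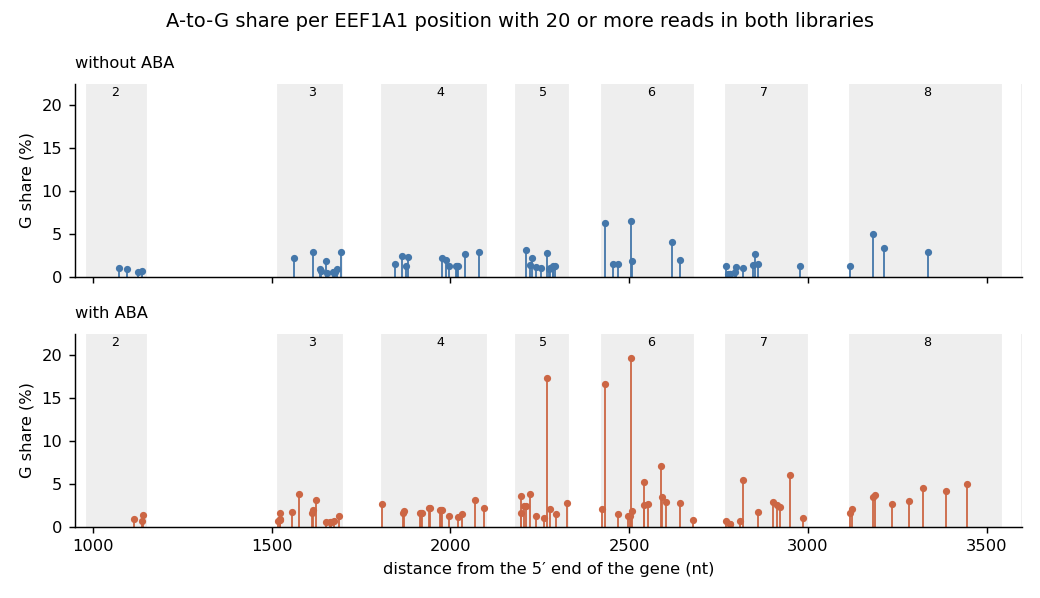
Share of G reads in percent (y axis) at each EEF1A1 position 20 or more reads deep in both libraries, against distance from the 5′ end of the gene (x axis, nt), without ABA (top) and with ABA (bottom); grey bands are blocks. With ABA, 3 positions of blocks 5 and 6 stand at 16.7% to 19.7%, and without ABA the highest is 6.45%.

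The other named positions had lower shares. In block 7, 74227937 had 1 G read of 96 without ABA, 1.04% (0.0264 to 5.67), and 6 of 109 with ABA, 5.50% (2.05 to 11.6). Position 74227807, in the same block, had 0 G reads of 57, and 3 of 50 with ABA. In block 6, 74228168 had 0 of 37 and 2 of 28 reads, and 74228216 had 0 of 56 and 2 of 38. In block 8, 74227312 had 0 of 20 and 1 of 20 reads. At the last 3 of these positions a difference of 1 or 2 reads makes the change.

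At some positions the share was lower with ABA. The 1 position lower by at least 5 points, 74227574 in block 8, showed G in 1 of 20 reads without ABA and in 0 of 26 with ABA. Position 74229105 in block 3 showed G in 4 of 216 reads without ABA, 1.85% (0.507 to 4.67), and in 1 of 174 with ABA, 0.575% (0.0145 to 3.16). Position 74227984, the deepest end of block 7, had 4 of 313 and 2 of 278 reads. The intervals of the libraries overlapped at each of these positions.

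**Figure D4:**
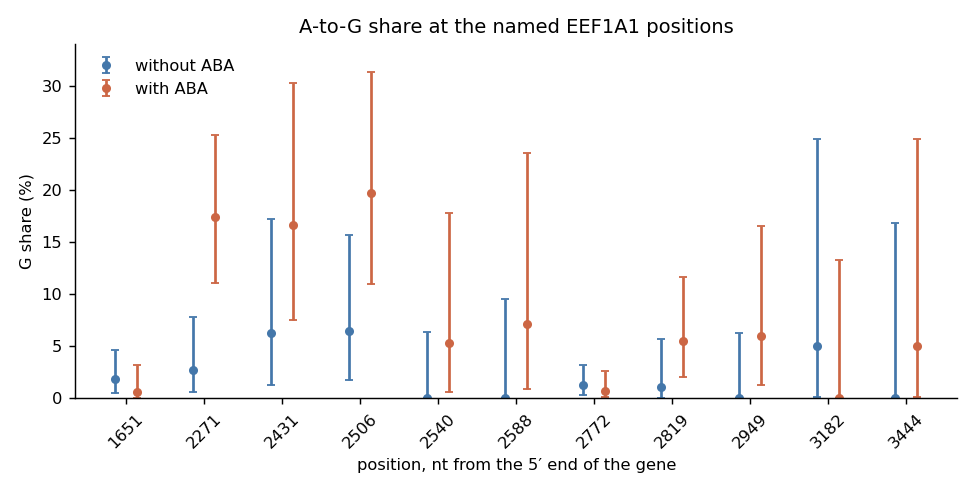
Share of G reads in percent (y axis) at the 11 named EEF1A1 positions, labelled by distance from the 5′ end of the gene (x axis, nt), without ABA (blue) and with ABA (orange); bars are exact 95% counting intervals. The intervals of the libraries are apart at 2271 nt, the position with 21 of 121 G reads with ABA, and overlap at the other positions. The position at 2271 nt was known when the gene was chosen.

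By block, the A-to-G rate was higher with ABA in each of the 7 deep blocks, while 66.2% of nuclear blocks that held 2000 or more reads in each library were higher. The median rate without ABA was 0.0400% in these nuclear blocks and 0.292% in the 7 EEF1A1 blocks. Nuclear blocks thus held fewer G reads for their depth, so these shares are not like for like. Block 5 had the highest rate in both libraries, 0.565% (0.316 to 0.930) in the absence of ABA and 1.42% (0.982 to 1.97) in its presence, and its ratio was 2.51 (1.33 to 4.95). Block 6 went from 0.292% (0.156 to 0.499) to 0.996% (0.703 to 1.37), a ratio of 3.41 (1.77 to 6.99). With ABA, 2 of 2563 such nuclear blocks had a rate at or above that of block 5, itself included, and 7 had one at or above that of block 6.

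In the other deep blocks the intervals of both libraries overlapped. Block 3 had 0.257% and 0.300%, block 4 had 0.295% and 0.343%, and block 7 had 0.301% and 0.369%. Their ratios were 1.17 (0.541 to 2.54), 1.16 (0.524 to 2.63) and 1.23 (0.598 to 2.55). Block 8 had 0.132% and 0.263%, from 5 and 9 reads, a ratio of 1.99 (0.598 to 7.55). Block 2, the first deep block, had the lowest rate in both libraries, 0.0810% (0.0221 to 0.207) and 0.112% (0.0306 to 0.287), from 4 reads in each, a ratio of 1.39 (0.258 to 7.44). The intervals of these 5 blocks include a ratio of 1 as well as the nuclear ratio of 2.01. With blocks 5 and 6 left out, EEF1A1 had 0.198% and 0.283%, a ratio of 1.43 (0.981 to 2.09).

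Without the 3 positions fewer G reads remained in blocks 5 and 6. Block 5 then had 12 of 2546 reads without ABA, 0.471% (0.244 to 0.822), and 13 of 2281 with ABA, 0.570% (0.304 to 0.973), which gives a ratio of 1.21 (0.509 to 2.90). Block 6 had 6 of 4339, 0.138% (0.0508 to 0.301), and 16 of 3599, 0.445% (0.254 to 0.721), a ratio of 3.21 (1.19 to 10.03). The number of block 6 positions with a G read was 7 without ABA and 15 with ABA, and in block 5 it was 11 in both. These intervals overlap widely, so a difference between both blocks is not shown.

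**Figure D5:**
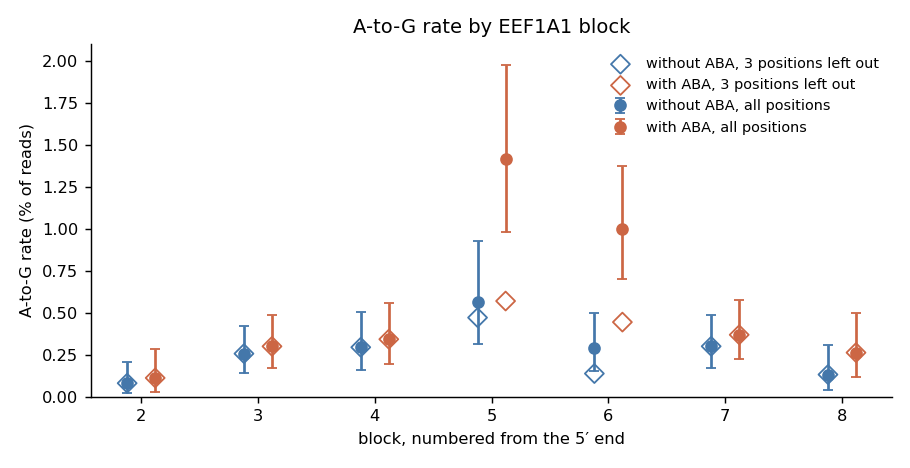
A-to-G rate in percent of reads (y axis) in blocks 2 to 8 of EEF1A1 (x axis, numbered from the 5′ end), without ABA (blue) and with ABA (orange); filled circles with exact 95% counting intervals use all positions, open diamonds leave out 74228485, 74228325 and 74228250. Blocks 5 and 6 stand at 1.42% and 0.996% with ABA, and at 0.570% and 0.445% without these positions.

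Blocks 9 to 12 held 1 G read of 2995 without ABA, 0.0334% (0.000845 to 0.186), an interval below that of blocks 1 to 8, 0.258% (0.205 to 0.320). With ABA they held 1 of 876, 0.114% (0.00289 to 0.634), which overlaps the 0.478% (0.401 to 0.565) of blocks 1 to 8. These sets of blocks were not matched on depth. Nuclear positions with 6 to 9 and 10 to 19 reads in the shallower library had 0.0263% and 0.0333% without ABA.

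The bases beside an A can be read in part from the tables, since a neighbouring A is itself listed where depth allows. At a depth of 20 or more in each library, positions with no A on the 3′ side had 0.283% (0.214 to 0.367) without ABA and 0.613% (0.504 to 0.738) with ABA. Those with an A on the 3′ side had 0.236% (0.1495 to 0.354) and 0.261% (0.165 to 0.391). With ABA the first rate was 2.35 times the second (1.49 to 3.86). The 3 positions named above all have no A on the 3′ side and were picked for their G reads, which favours that ratio. Without them the first rate was 0.384% (0.298 to 0.486), or 1.47 times the second, and the intervals of the rates overlapped. A difference by the 3′ neighbour is thus not shown. On the 5′ side the groups were closer. Positions with no A before them had 0.493% with ABA and those with one had 0.459%, a ratio of 1.07 (0.731 to 1.60), which became 0.574 without the 3 positions, all of which have no A before them and were picked for their G reads. Which of the other 3 bases stood there was not analysed here.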

How the data were processed

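Libraries came from enriched mRNA (KAPA mRNA HyperPrep), per the labels. The submitters' processing notes name cutadapt, HISAT2 and the hg19 build, without versions; the sources used here do not give the base counting program. The authors deposited counts of reads with each base at A positions (plus strand) or T positions (minus strand), not normalised, with a single base read cutoff of 5 per the file headers. The lowest depth found was 6 reads.

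Minus-strand counts were complemented. A share is G over A plus G reads, and a rate pools reads over positions. Shares have Clopper-Pearson intervals and ratios exact conditional binomial intervals, at 95%. Nuclear sets leave out positions with a share of 35% or more in either library (for A-to-C and A-to-T, of C or T), and a count of 0 has a floor of 3 reads. No test was run: the gene, the lists and the rules were chosen with earlier results of these data known, and each group has 1 library. Positions named had a change of at least 5 percentage points at 20 or more reads in both libraries, or at least 3 G reads without ABA, or at least 5 with ABA. Interval and size rules were tested on simulated data with independent reads, so the effect of 1 read spanning several positions was not tested. The planned comparison with other elongation factor genes was not run, as an hg19 annotation was not used here. Alternatives to coverage, change, depth, block gap and the positions included were tried. Software was scipy 1.17.1, pandas 2.3.3 and numpy 2.4.6 under Python 3.11.15, with matplotlib 3.10.9 for figures.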

Additional observations from a re-analysis of the deposited data

How the results depend on the processing

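The A-to-G ratio stayed above 1 under the 10 alternatives that changed its value (keeping variant-like positions could not, as EEF1A1 has none) and, except with blocks 5 and 6 left out (1.43), within the counting interval of its value; it was 1.63 at 50 or more reads, 1.72 without 74228485 and 1.52 without the 5 positions with the most G reads. Without the 3 positions, without blocks 5 and 6, and without positions near block ends were settings chosen after seeing the data. Keeping variant-like positions did change the nuclear ratio, which was then 1.70 (1.68 to 1.73). The depth ratio was 0.956 over all listed positions. The 7 higher positions became 3 at a coverage minimum of 50 and 3 at a change of 10 points; the 1 lower position became 0 and 0, and 2 at thinned depth. The highest block rate with ABA was 0.665% at a gap of 100 nt, which joins the covered stretches into 5 blocks, and 0.570% without the 3 positions. Positions with at least 2 G reads numbered 12 without ABA and 15 with ABA. With ABA, the rate without over with a neighbouring A was 0.504 on the 5′ side without the 5 positions and 0.574 without the 3, and on the 3′ side it was 1.33 and 1.47. No paired analysis was possible because each group has 1 library. At a median of 10 reads per nuclear position, most shares of single positions are set within wide limits.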

Other observations

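The plus strand of the EEF1A1 locus, which no comparison used, was listed at 101 positions without ABA and 53 with ABA, with a median of 7 reads in both. It carried 0 G reads of 872 without ABA and 0 of 390 with ABA. A count of 0 allows rates of up to 0.344% and 0.769%, so the rates found on the EEF1A1 transcript were not detectable there. A-to-C and A-to-T reads on that strand were also 0 in both libraries.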
